A study of Mus musculus with 6 samples.

Results

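The genes described are 39 that act in DNA replication and mitosis, chosen by function from what is known of the cell cycle, out of 19932 genes measured. Earlier results of these data were known when they were chosen. Of these, 17 serve DNA replication, with cyclin E counted among them, and 22 serve mitosis. All 39 were found on the array and all entered the test. Their transcripts were read on whole-transcript arrays hybridised with RNA of chondrocytes, which build and maintain cartilage, from ICR mice, an outbred strain, that were wild type and not treated. The nasal group holds 3 samples of nasal septum taken on embryonic day 17.5, and the rib group 3 samples of rib taken on postnatal day 1. The labels call the 3 samples of a group biological replicates without giving the number of animals in each. Site and age differ together, so the comparison sets nasal septum at the embryonic age against rib at the postnatal age. The 2 cannot be told apart. Per the design text, the arrays were made to be read beside maps of Sox9 binding and of histone marks, which were not analysed here.

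The 6 arrays had medians of 216 to 261 in nasal and 209 to 234 in rib, with the 2% trimmed mean at 500 on each. Across probe sets, log2 values correlated at 0.987 to 0.992 within nasal, at 0.991 to 0.993 within rib and at 0.957 to 0.968 between the groups. These are correlations over genes, which are not independent replicates. Chondrocyte markers were measured in both groups, as given at the end. No gene is read as more or less abundant than another here, since probes differ in brightness. Ratios of 2 genes, given below, are set to a mean of 0 over the 6 samples.

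A cell copies its DNA once per division. In G1 the origin recognition complex, Cdc6 and Cdt1 load the ring-shaped Mcm helicase onto replication origins, which licenses them, and cyclin E with its kinase and the GINS complex then help to start copying with nucleotides made by ribonucleotide reductase and thymidylate synthase. Later, cyclins A and B with Cdk1 drive the cell into mitosis, where spindle motors, kinetochore proteins and the Aurora and Polo-like kinases separate the chromosomes. In growing cartilage, chondrocytes of the resting and proliferative zones divide and hypertrophic chondrocytes have left the cycle. Transcripts of replication genes are known to peak around S phase under E2F factors, and those of mitosis genes in G2 and M under the MuvB complexes, which bind the CHR element, together with the CCAAT-binding factor NF-Y.

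Promoter windows are shown for members that differed between the cartilages, so that the letters searched for can be read in place. RefSeq windows of 300 bases, from 250 before to 50 after a start site (build GRCm38.p6), were found for 31 of the 39 genes, with 34 windows in all. Exact letters were searched on both strands: TTCCCGC or TTGGCGC for E2F, CCAAT, and TTTGAA or TTTAAA for the CHR element. An E2F match read as ATTGGCGC also counts as CCAAT. Kif20a and Mcm4, which passed the test, had no window and are not shown. Below are the 250 bases before the start site for Plk1, Ccne1, Rrm2, Ccnb2 and Top2a, the members with a window of smallest adjusted p, written 5′ to 3′ along the gene, with matches in capitals. Plk1 lies at chr7:122159185-122159434 (plus strand), Ccne1 at chr7:38107491-38107740 (minus strand), Rrm2 at chr12:24708004-24708253 (plus strand), Ccnb2 at chr9:70421555-70421804 (minus strand) and Top2a at chr11:99024190-99024439 (minus strand).
Plk1: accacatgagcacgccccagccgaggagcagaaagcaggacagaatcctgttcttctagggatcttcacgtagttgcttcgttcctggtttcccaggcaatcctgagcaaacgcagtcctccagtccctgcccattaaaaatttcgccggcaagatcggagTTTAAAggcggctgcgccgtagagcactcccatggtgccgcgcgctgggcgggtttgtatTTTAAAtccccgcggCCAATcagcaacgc
Ccne1: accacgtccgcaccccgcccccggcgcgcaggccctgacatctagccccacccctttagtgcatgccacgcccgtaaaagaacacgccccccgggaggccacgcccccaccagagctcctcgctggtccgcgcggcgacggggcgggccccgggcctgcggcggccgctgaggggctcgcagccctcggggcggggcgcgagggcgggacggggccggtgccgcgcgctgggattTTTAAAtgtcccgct
Rrm2: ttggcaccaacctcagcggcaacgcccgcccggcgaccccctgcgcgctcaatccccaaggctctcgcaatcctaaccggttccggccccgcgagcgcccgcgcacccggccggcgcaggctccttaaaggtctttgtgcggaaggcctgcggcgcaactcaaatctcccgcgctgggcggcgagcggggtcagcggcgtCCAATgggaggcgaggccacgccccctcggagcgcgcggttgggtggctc
Ccnb2: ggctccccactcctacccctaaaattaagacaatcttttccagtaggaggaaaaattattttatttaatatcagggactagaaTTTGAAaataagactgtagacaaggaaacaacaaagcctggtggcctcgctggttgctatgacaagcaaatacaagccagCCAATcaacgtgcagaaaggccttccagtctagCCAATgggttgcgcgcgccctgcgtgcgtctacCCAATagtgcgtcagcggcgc
Top2a: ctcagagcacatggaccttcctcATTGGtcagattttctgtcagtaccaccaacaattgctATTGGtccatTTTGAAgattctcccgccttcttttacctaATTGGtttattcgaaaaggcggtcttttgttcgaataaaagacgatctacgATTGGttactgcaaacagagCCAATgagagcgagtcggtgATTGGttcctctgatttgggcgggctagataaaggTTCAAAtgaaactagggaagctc
Ccnb2 held 3 CCAAT matches on the sense strand, whose first bases lay at -87, -54 and -21, counting -1 as the base before the start site. Plk1 held TTTAAA at -89 and -29 and CCAAT at -14. After the printed stretch, the searched windows also held TTTGAA at position 5 for Ccnb2 and at position 31 for Plk1. Among the mitosis windows, 18 of 20 (90.0%) held CHR letters, against 4 of 14 replication windows (28.6%) and 27.6% of all 32851 windows. The 20 windows come from 18 genes and the 14 from 13. Ect2 and Prc1 each enter with 2 windows that overlap almost wholly, so the same match counts more than once, and Mcm7 enters with 2 separate windows. E2F letters were in 8 of 14 replication windows (57.1%), against 4 of 20 mitosis windows (20.0%) and 6.81% of all windows. CCAAT was in 10 of 14 replication windows (71.4%), 17 of 20 mitosis windows (85.0%) and 37.4% of all. Members that differed between the cartilages were mixed: both CHR and CCAAT letters were in 5 of their 11 windows (45.5%), those of Rrm2, Ccnb2, Top2a, Mcm2 and Plk1. Both were in 19 of the 34 windows of all members (55.9%) and in 10.7% of all windows. The CHR match of Rrm2, TTTAAA, begins at position 1, after the printed stretch, and so is not seen there. Birc5 and Ccne1 held CHR but not CCAAT letters, Rrm1 and Mcm7 CCAAT but not CHR letters, and Tyms neither. None of the 5 stretches printed held the E2F letters. A match is a description of these letters and not a shown binding site, and a missing match says only that these letters are not in the window.

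**Figure D1:**
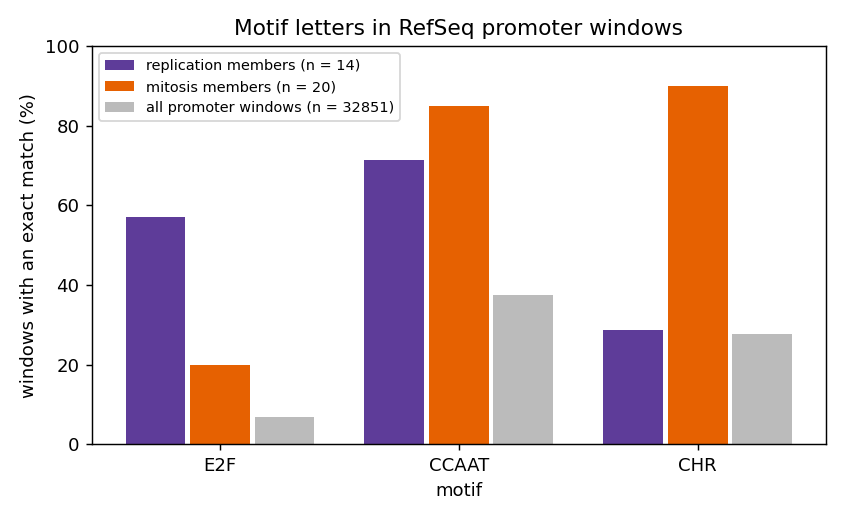
Share of RefSeq promoter windows (y axis, percent) with an exact match to the E2F, CCAAT or CHR letters (x axis), for 14 windows of replication members (13 genes), 20 of mitosis members (18 genes) and all 32851 windows. CHR letters were in 90.0% of mitosis windows against 28.6% of replication windows, and E2F letters in 57.1% of replication windows against 20.0% of mitosis windows.

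On the arrays, 8 of the 39 genes were higher in nasal septum at an adjusted p of 0.05 in limma, and 4 were higher in rib. The nasal side held Mcm4, the 3 genes of nucleotide supply (Rrm1, Rrm2 and Tyms), cyclin E1 (Ccne1), cyclin B2 (Ccnb2), topoisomerase II alpha (Top2a) and survivin (Birc5). The rib side held Mcm2, Mcm7, Plk1 and the kinesin Kif20a. The other 27 did not pass. The 12 called genes make 30.8% of the 39, close to the 28.5% called among all genes, so the number of calls is not a result about these genes. By direction, 20.5% were higher in nasal, where 13.8% of all genes were, and 10.3% higher in rib, where 14.7% of all genes were. In bulk samples, fewer dividing cells and less RNA per cell cannot be told apart.

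Differences were small. They ran from -0.83 to 0.63 on the log2 scale, with positive values higher in nasal, and 0 of the 39 reached a 2-fold difference, which 3.82% of all genes did. The median difference was 0.06, against 0.11 over all genes, and the median size regardless of sign was 0.19, against 0.27 over all genes. For 38 of the 39, the 95% interval of the difference lay within 2-fold in either direction, and Plk1 was the exception. The nasal and rib values did not overlap for 21 of the 39, 13 with nasal higher and 8 with rib higher. The same held for 45.7% of all genes (9099 of 19932), 4775 with nasal higher and 4324 with rib higher. Each result was also computed under 15 alternatives, listed here once. They were centring each array on its median, quantile normalization, cyclic loess (which removes level-dependent shifts between arrays), and keeping only genes above the median or the 25th percentile of mean level. They were also limma's trend and robust options, which let the spread vary with level, a replicate block, the mean of a gene's probe sets, an offset of 50 added before log2, and leaving out each of the 6 samples. Quantile normalization and cyclic loess moved the split of calls, to 14 nasal and 3 rib and to 15 nasal and 2 rib. Calls over all genes rose too, from 28.5% as reported to 34.5% (3253 nasal and 3631 rib) and 35.0% (3468 nasal and 3500 rib). The median over all genes was -0.00 and 0.01 under these settings, against 0.11 as reported, and the median of the 39 was 0.12 and 0.15. Relative to all genes, the median of the 39 was thus 0.06 lower as reported and higher under these 2 settings. It was also higher with the filter at the median level (0.09, against -0.07 over all genes kept), with that at the 25th percentile (0.06 against 0.04) and without nasal replicate 1 (0.05 against 0.03), so leaving out that 1 sample turned the direction. Under median centring the median of the 39 was -0.00 and that of all genes 0.06.

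**Figure D2:**
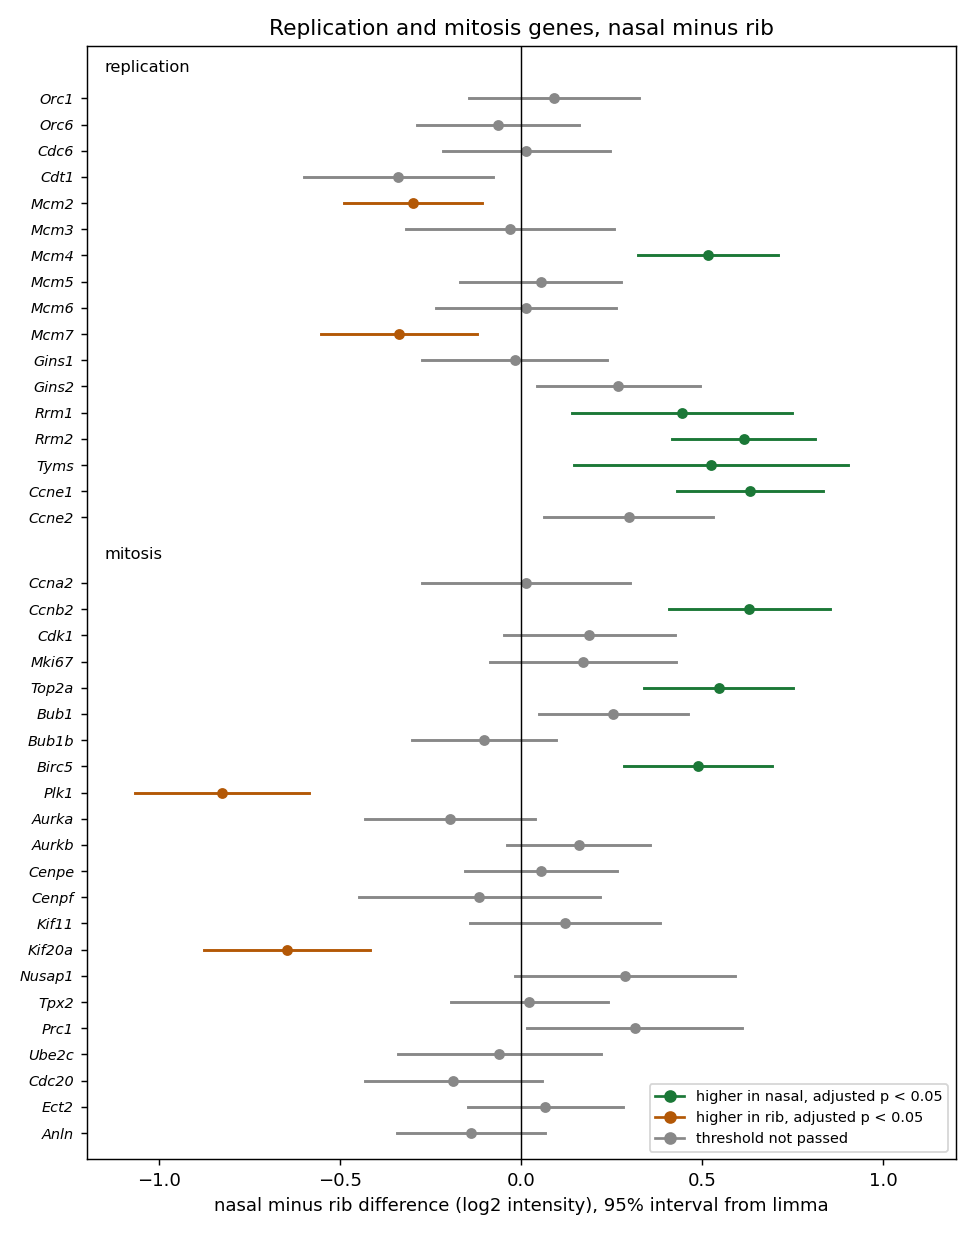
Nasal minus rib difference in log2 intensity (x axis) for each of the 39 genes (y axis), with the 95% interval from limma (3 samples per group), replication genes above and mitosis genes below. The 8 green genes lie to the right of 0 and the 4 orange genes to the left, and no point reaches a difference of 1.

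The replication genes went in both directions. Of 17, 5 passed on the nasal side, 2 passed on the rib side and 10 did not pass, with a median difference of 0.05. The called share was 41.2% (29.4% nasal and 11.8% rib), beside 28.5% of all genes (13.8% nasal and 14.7% rib). Without 1 sample, the nasal count ran from 3 (without nasal replicate 2 or 3 or rib replicate 1 or 3) to 6. The rib count was 0 without nasal replicate 2 or any 1 rib replicate, 1 (Cdt1) without nasal replicate 3 and 2 without nasal replicate 1. Of the 22 mitosis genes, 3 passed with nasal higher, 2 with rib higher and 17 not at all, with a median of 0.06 and a called share of 22.7% (13.6% nasal and 9.09% rib). After taking each gene's mean over the 6 samples as 0, the median replication gene stood at 0.03, 0.08 and 0.08 in nasal replicates 1, 2 and 3, against -0.07, -0.03 and -0.07 in the rib replicates. The median mitosis gene stood at 0.02, 0.04 and 0.09 in the nasal samples, against -0.00, -0.03 and -0.05 in the rib samples. All nasal samples were thus above all rib samples for both medians, by small amounts. The median over all genes was 0.19, -0.01 and -0.06 in nasal and -0.04, -0.11 and 0.04 in rib, so nasal replicate 1 stood highest there but lowest among the nasal samples for both gene groups.

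**Figure D3:**
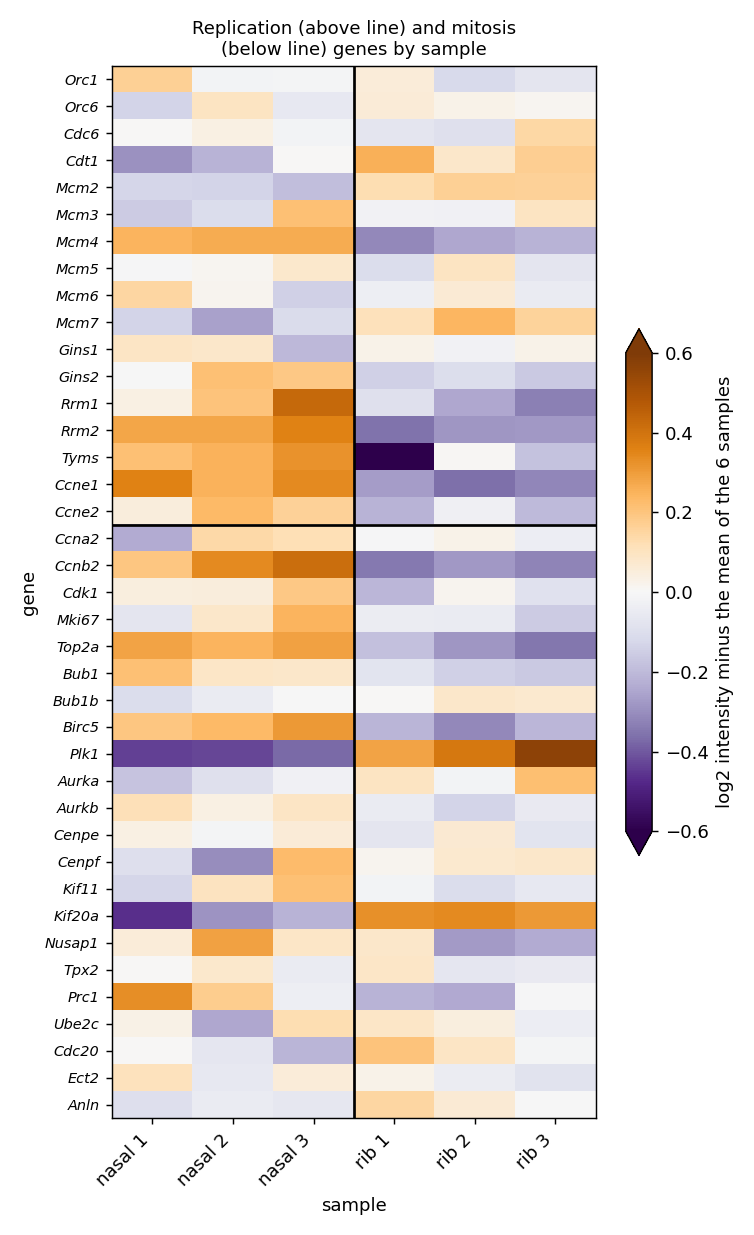
Log2 intensity of each gene (rows) minus its mean over the 6 samples, for the 3 nasal and 3 rib samples (columns), with replication genes above the horizontal line. Rrm2, Ccne1, Ccnb2 and Top2a are high in all 3 nasal samples and low in all 3 rib samples, and Plk1 and Kif20a show the opposite.

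Genes of origin recognition and helicase loading did not pass in either direction. Cdt1, the loading factor held in check by geminin, had intensities of 833, 878 and 1022 in the nasal samples, against 1219, 1079 and 1151 in the rib samples. All nasal values lay below all rib values, and the difference of -0.34 (SE 0.11, 95% interval -0.60 to -0.08, limma adjusted p = 0.0589) missed the threshold. It passed as higher in rib with trend and robust (adjusted p = 0.00293), with an offset of 50, with both filters on dim genes and without nasal replicate 3 (adjusted p = 0.0383). Orc1, the largest subunit of the origin recognition complex, had intensities of 187, 164 and 165 in the nasal samples, against 173, 153 and 158 in the rib samples. These values overlapped, with a difference of 0.09 (SE 0.10, 95% interval -0.14 to 0.33, limma adjusted p = 0.514). Orc6, the smallest subunit, had intensities of 547, 643 and 577 in the nasal samples, against 626, 612 and 606 in the rib samples. Its values overlapped too, with a difference of -0.06 (SE 0.09, 95% interval -0.29 to 0.16, limma adjusted p = 0.633). Cdc6, the ATPase that joins them, showed 0.01 (SE 0.10, 95% interval -0.22 to 0.24, limma adjusted p = 0.926). Neither Orc1, Orc6 nor Cdc6 kept its sign under quantile normalization and cyclic loess.

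Among the 6 subunits of the Mcm helicase, 1 was higher in nasal and 2 in rib. Mcm4 had intensities of 812, 822 and 823 in the nasal samples, against 553, 578 and 588 in the rib samples. The samples of a group lay close together and the groups were far apart, with a 1.43-fold higher level in nasal and a log2 difference of 0.52 (limma adjusted p = 0.00411, SE 0.08). Mcm7 had intensities of 856, 783 and 869 in the nasal samples, against 1013, 1111 and 1045 in the rib samples. All rib values were higher, by 1.26-fold, a log2 difference of -0.34 (limma adjusted p = 0.0319, SE 0.09). Mcm2 had intensities of 626, 625 and 601 in the nasal samples, against 746, 768 and 764 in the rib samples. Here too all rib values were higher, by 1.23-fold, a log2 difference of -0.30 (limma adjusted p = 0.0319, SE 0.08). The calls of Mcm2 and Mcm7 ended without nasal replicate 2 or 3 or without any 1 of the rib replicates (adjusted p 0.0778 to 0.118 for Mcm2 and 0.0557 to 0.126 for Mcm7), after cyclic loess (0.107 and 0.063) and with the replicate block (0.102 and 0.0975). Mcm2 also lost its call after quantile normalization (adjusted p = 0.0885). Mcm4 was called as higher in nasal under each of the 15 alternatives. Mcm3 (log2 difference -0.03, SE 0.12), Mcm5 (0.05, SE 0.09) and Mcm6 (0.01, SE 0.10) did not pass.

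The array's scale cancels when 2 subunits are set against each other within a sample. The log2 ratio of Mcm4 to Mcm7, with its mean over the 6 samples set to 0, was 0.38, 0.53 and 0.38 in the nasal samples, against -0.42, -0.49 and -0.37 in the rib samples. Its nasal minus rib difference was 0.85. For Mcm4 to Mcm2 the difference was 0.81. These pairs were chosen after their values were seen, so no test is given. The ratios restate the opposite signs by which the pairs were picked and support nothing further.

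The GINS subunits, which join the helicase when an origin fires, did not pass. Gins2 had intensities of 415, 482 and 475 in the nasal samples, against 377, 387 and 372 in the rib samples. All nasal values were higher, with a difference of 0.27 (SE 0.10, 95% interval 0.04 to 0.49, limma adjusted p = 0.077). It was called as higher in nasal without nasal replicate 1 (adjusted p = 0.0279), after quantile normalization, cyclic loess and trend and robust, and with both filters on dim genes. Gins1 was dim, with intensities of 108, 107 and 87.6 in the nasal samples, against 103, 99.2 and 102 in the rib samples. These overlapped, with a difference of -0.02 (SE 0.11, 95% interval -0.27 to 0.24, limma adjusted p = 0.913). The second probe set of Gins1 stood at 0.21, the opposite sign.

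All 3 genes of nucleotide supply were higher in nasal. Rrm2, the small subunit of ribonucleotide reductase whose level follows S phase, had intensities of 552, 552 and 583 in the nasal samples, against 354, 373 and 374 in the rib samples. The groups were well separated, with a 1.53-fold higher level in nasal and a log2 difference of 0.61 (limma adjusted p = 0.00227, SE 0.08). Rrm1, the large subunit, had intensities of 1059, 1191 and 1391 in the nasal samples, against 972, 871 and 822 in the rib samples. Every nasal value exceeded every rib value, but both groups were spread, and the log2 difference was 0.44 (limma adjusted p = 0.0398, SE 0.13). Tyms, the thymidylate synthase, had intensities of 354, 363 and 381 in the nasal samples, against 199.7, 306 and 269 in the rib samples. Rib replicate 1 was the lowest, the groups did not overlap, and the log2 difference was 0.52 (limma adjusted p = 0.0485, SE 0.16). Its second probe set, for a non-coding transcript of the gene, stood at 0.42. Rrm2 was called under each of the 15 alternatives. Rrm1 lost its call without nasal replicate 2 or 3 or any 1 rib replicate (adjusted p 0.0608 to 0.118), under median centring (0.103) and with the replicate block (0.1003). Tyms lost it without nasal replicate 1, 2 or 3 or rib replicate 1 or 3 (adjusted p 0.0647 to 0.114), under median centring (0.0626), with the mean of its probe sets (0.0645) and with the replicate block (0.0616).

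Cyclin E genes, whose products drive entry into S phase, were 1 of 2 called. Ccne1 had intensities of 741, 688 and 732 in the nasal samples, against 481, 449.5 and 464 in the rib samples. The groups did not come near each other, with a 1.55-fold higher level in nasal and a log2 difference of 0.63 (limma adjusted p = 0.00221, SE 0.09), and the call held under each alternative. Ccne2 had intensities of 372, 421 and 402 in the nasal samples, against 309, 352 and 313 in the rib samples. All nasal values were higher, but the difference of 0.30 (SE 0.10, 95% interval 0.06 to 0.53, limma adjusted p = 0.0645) missed the threshold. It was called without nasal replicate 1 (adjusted p = 0.0436), after quantile normalization and cyclic loess, with trend and robust and with both filters on dim genes. Its second probe set stood at 0.23.

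**Figure D4:**
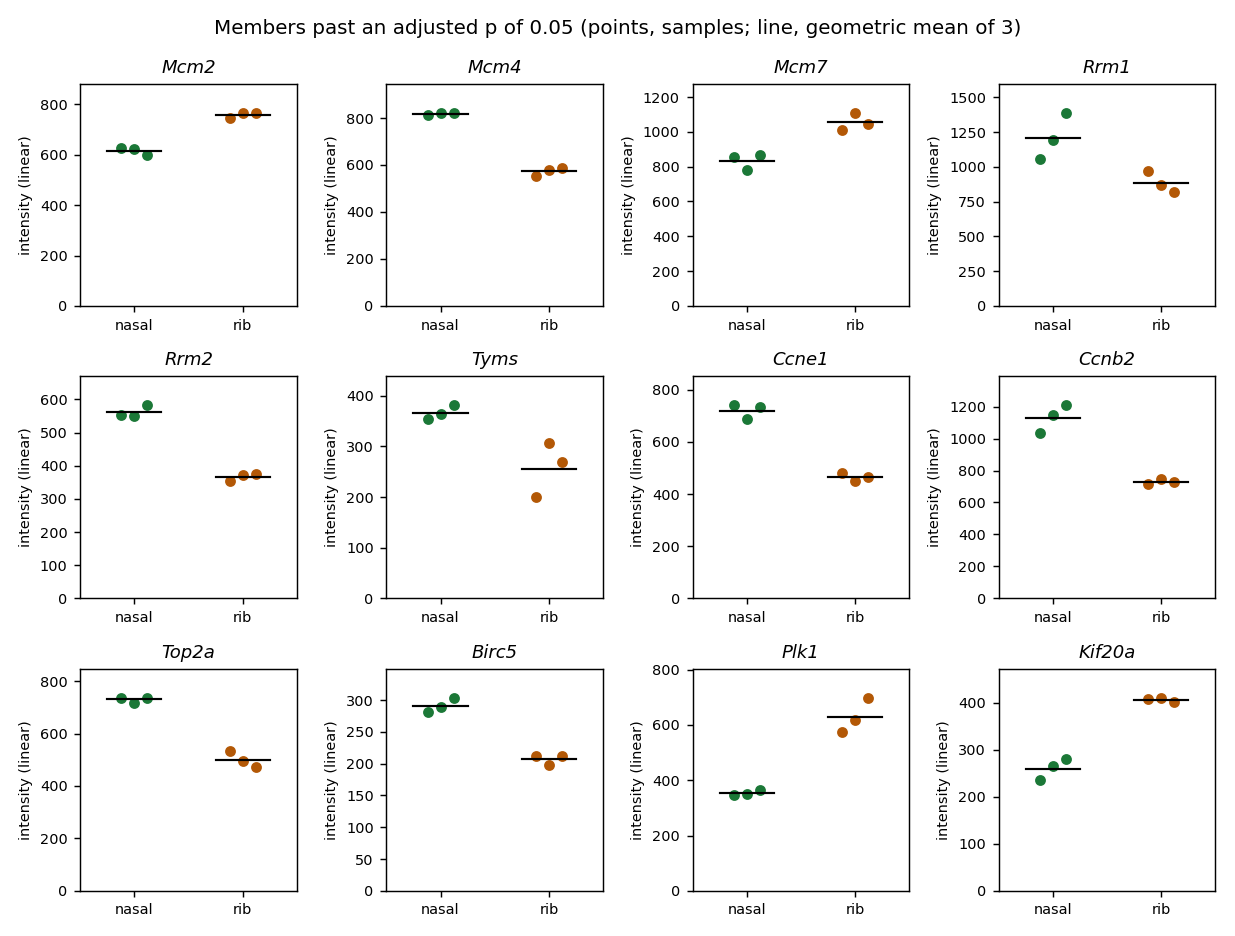
Linear intensity (y axis, from 0) of the 12 genes past an adjusted p of 0.05, in the 3 nasal and the 3 rib samples (points), with the geometric mean of each group as a line. In each panel the groups do not overlap, with Mcm2, Mcm7, Plk1 and Kif20a higher in rib and the other 8 higher in nasal.

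Mitotic cyclins differed by member. Ccnb2, a B-type cyclin that activates Cdk1, had intensities of 1037, 1147 and 1209 in the nasal samples, against 713, 748 and 725 in the rib samples. Every nasal value was higher, by 1.55-fold on average, with a log2 difference of 0.63 (limma adjusted p = 0.00325, SE 0.09). Cdk1, the kinase itself, had intensities of 1084, 1087 and 1201 in the nasal samples, against 909, 1063 and 990.3 in the rib samples. All nasal values lay above all rib values by a narrow margin, with a difference of 0.19 (SE 0.10, 95% interval -0.05 to 0.42, limma adjusted p = 0.202). Ccna2, the cyclin of S phase and G2, had intensities of 1158, 1500.3 and 1482 in the nasal samples, against 1358, 1389.9 and 1328 in the rib samples. Nasal replicate 1 was the lowest of all 6 and the other nasal samples the highest, with a difference of 0.01 (SE 0.12, 95% interval -0.27 to 0.30, limma adjusted p = 0.945). Ccnb2 kept its call under each alternative, and Cdk1 was called as higher in nasal after quantile normalization and cyclic loess (lowest adjusted p = 0.0328).

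Top2a and Mki67 encode chromosome proteins that are often used as marks of dividing cells. Top2a, which untangles DNA before chromosomes separate, had intensities of 736, 717 and 737 in the nasal samples, against 532, 496 and 474 in the rib samples. The groups were far apart, with a 1.46-fold higher level in nasal and a log2 difference of 0.55 (limma adjusted p = 0.00434, SE 0.09). Mki67, which encodes the coat protein Ki-67, had intensities of 993, 1105 and 1238 in the nasal samples, against 1011, 1009 and 935 in the rib samples. Nasal replicate 1 fell among the rib values, and the difference of 0.17 (SE 0.11, 95% interval -0.09 to 0.43, limma adjusted p = 0.276) did not pass. It passed as higher in nasal after cyclic loess (adjusted p = 0.0433). Over its alternatives the adjusted p of Mki67 ran up to 0.613.

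Mitotic kinases and checkpoint genes gave the largest difference of all 39, on the rib side. Plk1, the Polo-like kinase that drives mitotic entry and spindle assembly, had intensities of 348, 351 and 364 in the nasal samples, against 575, 617 and 698 in the rib samples. The rib values were all far above the nasal ones, by 1.77-fold, with a log2 difference of -0.83 (limma adjusted p = 0.00152, SE 0.10). Birc5, the survivin subunit of the chromosomal passenger complex, had intensities of 281, 289 and 304 in the nasal samples, against 211, 198 and 213 in the rib samples. Its nasal values were all higher, by 1.40-fold, with a log2 difference of 0.49 (limma adjusted p = 0.00645, SE 0.09), and its second probe set stood at 0.39. Bub1, a checkpoint kinase of the kinetochore, had intensities of 340.3, 312 and 311 in the nasal samples, against 278, 266 and 263 in the rib samples. All nasal values were higher, but the difference of 0.25 (SE 0.09, 95% interval 0.05 to 0.46, limma adjusted p = 0.0694) did not pass. Bub1 was called as higher in nasal after quantile normalization, cyclic loess and both filters on dim genes (lowest adjusted p = 0.0144). The related checkpoint gene Bub1b stood at -0.10, SE 0.08, the spindle pole kinase Aurka at -0.20, SE 0.10 and the passenger kinase Aurkb at 0.16, SE 0.08, and none of these 3 passed. Aurkb was called as higher in nasal after quantile normalization and cyclic loess (lowest adjusted p = 0.0142). Plk1 and Birc5 were called in the same direction under each of the 15 alternatives.

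Of the 7 kinetochore and spindle genes, Kif20a alone passed. This kinesin of the central spindle had intensities of 235, 266 and 279 in the nasal samples, against 407, 411 and 402 in the rib samples. Every rib value was higher, by 1.57-fold, with a log2 difference of -0.65 (limma adjusted p = 0.0033, SE 0.10), and its other 2 probe sets stood at -0.58 and -0.64. Prc1, which bundles the microtubules of the central spindle, had intensities of 495, 444 and 384 in the nasal samples, against 338, 332 and 391 in the rib samples. Nasal replicate 3 fell below rib replicate 3, and the difference was 0.31 (SE 0.13, 95% interval 0.02 to 0.61, limma adjusted p = 0.108). Nusap1, a microtubule-binding protein of the spindle, had intensities of 358, 422 and 367 in the nasal samples, against 365, 285 and 293 in the rib samples. Rib replicate 1 lay among the nasal values, and the difference was 0.29 (SE 0.13, 95% interval -0.02 to 0.59, limma adjusted p = 0.142). Both were called as higher in nasal with trend and robust and with the filter at the median level, and Prc1 also after quantile normalization and cyclic loess. The kinetochore genes Cenpe (0.06, SE 0.09) and Cenpf (-0.12, SE 0.14), the spindle motor Kif11 (0.12, SE 0.11) and the spindle assembly factor Tpx2 (0.02, SE 0.09) did not pass.

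Within samples, the log2 ratio of Ccnb2 to Plk1, set to a mean of 0, was 0.63, 0.77 and 0.79 in nasal, against -0.63, -0.67 and -0.89 in rib. The nasal minus rib difference of this ratio was 1.46, again for a pair chosen after its values were seen. Both genes belong to the G2 and M programme. For Top2a and Kif20a, picked in the same way, the difference was 1.19.

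Genes of the anaphase-promoting complex and of cytokinesis did not pass. Ube2c, the ubiquitin-conjugating enzyme of that complex, had intensities of 1407, 1161 and 1500.4 in the nasal samples, against 1460.4, 1421 and 1337 in the rib samples. The rib values all lay within the nasal range, with a difference of -0.06 (SE 0.12, 95% interval -0.34 to 0.22, limma adjusted p = 0.725). Cdc20, its activator, had intensities of 599.8, 570.1 and 515 in the nasal samples, against 688, 637 and 593 in the rib samples. Nasal replicate 1 exceeded rib replicate 3, and the difference was -0.19 (SE 0.10, 95% interval -0.43 to 0.06, limma adjusted p = 0.217). Ect2, which activates RhoA at the cleavage furrow, had intensities of 661, 588 and 637 in the nasal samples, against 626, 595 and 579.7 in the rib samples. These overlapped, with a difference of 0.07 (SE 0.09, 95% interval -0.15 to 0.28, limma adjusted p = 0.603). Anln, the actin-binding anillin, had intensities of 489, 505 and 499.9 in the nasal samples, against 579, 545 and 521 in the rib samples. All rib values of Anln were higher, and its difference was -0.14 (SE 0.09, 95% interval -0.34 to 0.07, limma adjusted p = 0.265). None of these 4 was called under any alternative.

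**Figure D5:**
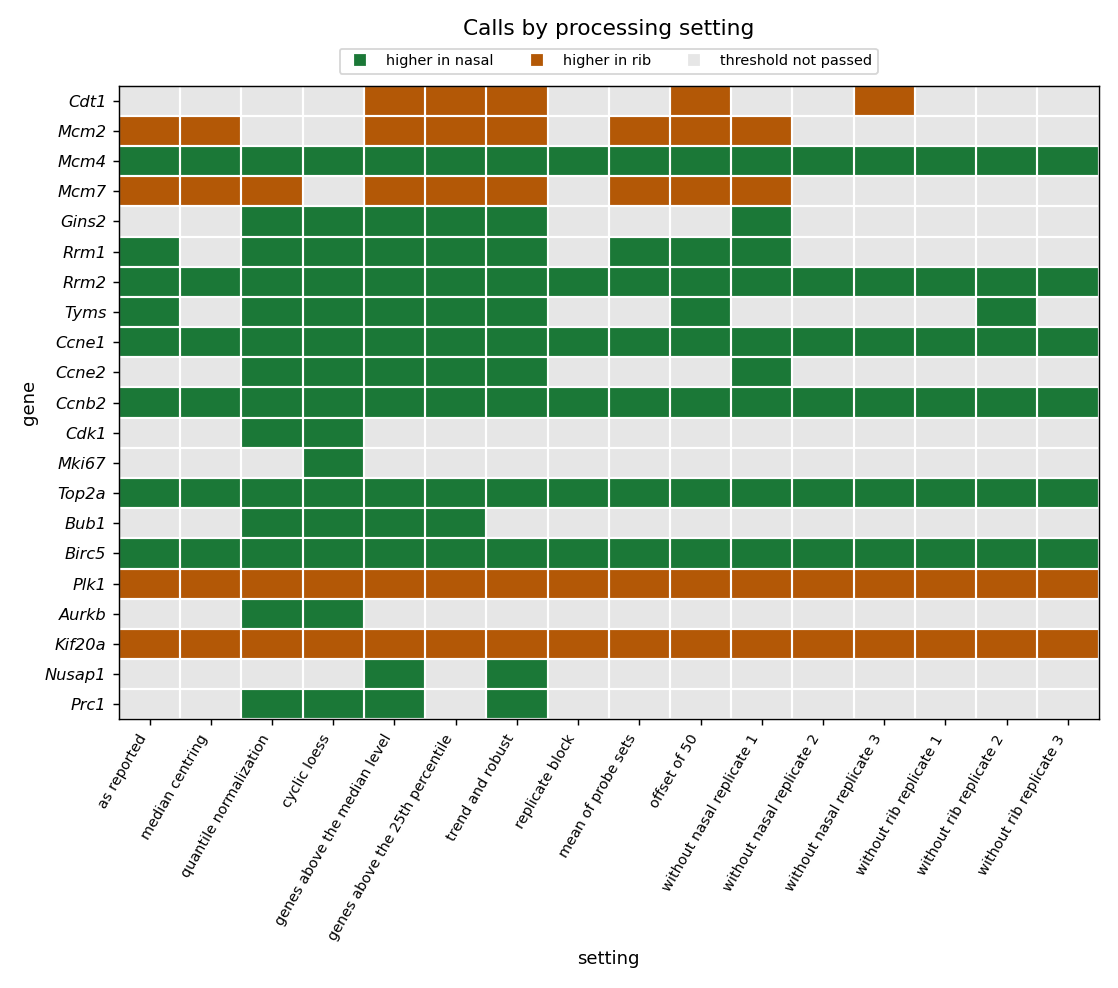
Calls at an adjusted p of 0.05 for the 21 genes (y axis) called in at least 1 setting, as reported and under 15 alternatives (x axis). Mcm4, Rrm2, Ccne1, Ccnb2, Top2a, Birc5, Plk1 and Kif20a keep their colour in every column, and no gene is called in both directions.

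Other genes of the same processes were read from 2 wider lists. Of 50 other replication genes measured (of 51 listed), 5 passed with nasal higher and 7 with rib higher, a total of 24.0% beside 28.5% of all genes, with a median difference of -0.00. Both counts lie near the shares of all genes, 13.8% nasal and 14.7% rib. Uhrf1, which recruits the maintenance methyltransferase (0.61, SE 0.11), the flap endonuclease Fen1 (0.42, SE 0.11), the origin-firing factor Ticrr (0.41, SE 0.12) and DNA ligase Lig1 (0.40, SE 0.10) led the nasal side. The polymerase delta subunit Pold2 (-0.60, SE 0.09), the single-strand binding subunits Rpa3 (-0.58, SE 0.10) and Rpa1 (-0.53, SE 0.09) and the GINS subunit Gins4 (-0.50, SE 0.10) led the rib side. Fen1, Ticrr and Lig1 each kept their call in only 1 of the 6 fits without 1 sample. The list then held 1 to 3 nasal calls, fewest without nasal replicate 2 or 3 or rib replicate 1 or 2. The rib count then ran from 4 to 6, with 4 without nasal replicate 3 or any 1 rib replicate. Pcna, the sliding clamp, was not analysed here.

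Of 63 other mitosis genes measured (of 67 listed), 13 passed with nasal higher and 6 with rib higher, a total of 30.2%, close to the 28.5% of all genes, with a median difference of 0.13. By direction this is 20.6% nasal and 9.52% rib, beside 13.8% and 14.7% of all genes. The condensin II subunit Ncapg2 (0.88, SE 0.10), the centromere protein Cenpi (0.64, SE 0.09), the mitotic kinase Pbk (0.63, SE 0.12) and the spindle kinesin Kif15 (0.55, SE 0.08) led the nasal side. Cyclin F (-0.54, SE 0.09 for Ccnf), the microtubule depolymerase Kif2c (-0.44, SE 0.10), the phosphatase Cdc25b (-0.43, SE 0.12) and the kinesin Kif18b (-0.42, SE 0.10) led the rib side. Kif2c kept its call in 3 of the 6 fits without 1 sample, and Cdc25b and Kif18b kept theirs in 2. The counts then ran from 6 to 13 in nasal, lowest without rib replicate 2, and from 1 to 7 in rib, lowest without nasal replicate 3 or rib replicate 3.

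Regulators upstream of S phase were read the same way. Of 35 measured genes for D cyclins, their kinases, kinase inhibitors, Rb and E2F factors and partners (of 38 listed), 5 passed with nasal higher and 7 with rib higher, a total of 34.3% beside 28.5% of all genes. The nasal share was 14.3%, beside 13.8% of all genes, and the rib share 20.0%, beside 14.7%. The G1 cyclins Ccnd3 (1.05, SE 0.09) and Ccnd2 (0.49, SE 0.09), the inhibitor Cdkn1c, which halts the cycle (0.83, SE 0.17), and the repressor E2f5 (0.66, SE 0.08) led the nasal side. The E2F partner Tfdp1 (-0.72, SE 0.22), the MuvB subunit Lin37 (-0.52, SE 0.10), the repressor E2f4 (-0.51, SE 0.11) and the cyclin D kinase Cdk4 (-0.50, SE 0.09) led the rib side. Tfdp1 kept its call in 3 of the 6 fits without 1 sample and E2f4 in 5. The list's rib count fell to 2 without rib replicate 2 and to 3 or 4 without rib replicate 3 or 1, where 7 genes were called with all samples.

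Markers of cell types were set beside these values, and their part in the results was not tested. The summed intensity of 10 chondrocyte markers was 86819 to 89560 in nasal and 79240 to 85900 in rib. Of these, Matn1 was higher in nasal (2.66, SE 0.09) and Comp (-1.50, SE 0.10) and Sox9 (-0.28, SE 0.09) in rib. Matn1 alone had intensities of 11065, 12396 and 11350 in nasal, against 1868, 1855 and 1778 in rib. The median difference of the list was 0.08. A sum follows its brightest probe sets, so no content of chondrocytes is read from it. The 6 hypertrophic markers summed to 11739 to 12701 in nasal and 18759 to 20586 in rib, with Ibsp higher in nasal (2.04, SE 0.23) and Spp1 (-1.51, SE 0.11) and Ihh (-0.45, SE 0.11) in rib. Spp1 alone had intensities of 4782, 3794 and 4538 in nasal, against 11797, 12946 and 12528 in rib. The gap in this sum is thus largely that of 1 bright gene and is not read as a difference in hypertrophic cells. Nasal replicate 1 had the highest sum of the 3 nasal samples in each list of blood or vessel cells. The same held for the hypertrophic, osteoblast, skeletal muscle, epithelial, and glial and neuronal lists, so it was not particular to blood or vessel cells. Only for the chondrocyte and perichondrial lists was its sum the lowest of the nasal samples. The 25th percentile of intensity was 140 on that array, against 108 and 102 on the other nasal arrays. Erythroid markers summed to 2143, 1301 and 1838 in the nasal samples, against 2073, 1897 and 2042 in the rib samples. Of 8 erythroid markers 5 were higher in nasal without passing, and Alas2 alone passed, higher in rib. Macrophage and osteoclast markers summed to 1733, 1415 and 1353 in nasal, against 1423, 1465 and 1515 in rib. Of these 6, 5 had a higher nasal mean without passing (median difference of the list 0.29), and Ctsk, the protease of osteoclasts, alone ran the other way and passed as higher in rib. Granulocyte markers summed to 1032, 594 and 629 in nasal, against 654, 509.6 and 563 in rib, with 4 of 6 higher in nasal and Ltf passing. Ltf had intensities of 435, 131 and 176 in nasal, against 89.5, 82.0 and 69.1 in rib, so nasal replicate 1 stood far above the other samples. The call of Ltf held without nasal replicate 1 and ended without nasal replicate 3 or any 1 rib replicate. Lymphocyte markers summed to 772, 571 and 558 in nasal, against 508, 492 and 576 in rib, with 4 of 5 higher in nasal and Vpreb1 passing. Endothelial markers summed to 1046, 655 and 748 in nasal, against 484, 470.2 and 553 in rib, with all 5 higher in nasal and Emcn and Cdh5 passing. Of perichondrial and fibroblast markers, 3 of 7 (Pdgfra, Dcn and Col3a1) passed as higher in rib, with sums of 20530.1 to 21705 in nasal and 20671 to 26504 in rib. Of 5 osteoblast markers, Alpl passed as higher in nasal, and the other 4 had a lower nasal mean without passing. Sox10, Stmn2 and Omp were the 3 of 6 glial and neuronal markers that passed, all higher in nasal. Acta1 was the 1 of 5 skeletal muscle markers that passed, higher in rib, and of 6 epithelial markers Cdh1 passed as higher in nasal and Epcam as higher in rib. In the 6 fits without 1 sample, the call of Sox9 held in 0 and those of Ihh and Ctsk in 1. Those of Ltf, Dcn, Col3a1, Acta1 and Stmn2 held in 2, that of Cdh1 in 4 and those of Vpreb1 and Omp in 5.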

How the data were processed

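RNA of 3 nasal and 3 rib chondrocyte samples (300.0 ng each) was labelled for whole-transcript arrays, as the labels' protocols record. The values the authors deposited are linear intensities, and the submitters' processing notes name RMA. Neither further steps nor a build is given in the sources used here. Log2 was taken with no pseudocount. Of 28451 RefSeq probe sets, 24935 matched 1 symbol, 0 several and 3516 none in the GRCm38.p6 table, which gave 19932 genes, each by its probe set of highest mean. Nasal minus rib was tested with limma 3.58.1 (lmFit, eBayes) in R 4.3.3 over all genes, with no covariate, Benjamini-Hochberg adjustment and a threshold of 0.05. The method was tested on simulated data. An exact permutation test of 3 against 3 cannot go below 0.1. Values of each sample are given for the 3 genes of smallest adjusted p in each role and for Mki67, and wider lists name up to 4 called genes per direction by size. The genes and lists were chosen with earlier results of these data known. Alternatives were 3 normalizations, 2 filters, trend and robust, the replicate block, probe set means, an offset of 50.0 and leaving out each sample.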

Additional observations from a re-analysis of the deposited data

How the results depend on the processing

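Of the 12 called genes, 8 (Mcm4, Rrm2, Ccne1, Ccnb2, Top2a, Birc5, Plk1 and Kif20a) kept direction and call under all 15 alternatives, and Mcm2, Mcm7, Rrm1 and Tyms lost their calls under some. None of the 12 changed sign under these alternatives. Of the other 27, 9 were called under at least 1 alternative and 18 under none. The filter at the median level left out Cdc6, Cenpe, Cenpf, Gins1 and Orc1, and that at the 25th percentile Gins1. Deviations of same-numbered nasal and rib samples correlated at -0.02, 0.22 and -0.28, and those of differently numbered samples at -0.37 to 0.38. Deviations cancel within a group, so these values are not independent and cannot settle whether samples were paired. With the replicate block, 3 replication genes were called in nasal and 0 in rib, as were 1 and 4 other replication genes, 6 and 1 other mitosis genes, and 4 genes of the cyclin D list in rib. Among the 39 the block left 6 nasal and 2 rib calls, and over all genes 1939 and 1964. Median centring left 3 replication genes in nasal, 3 other replication genes and 8 other mitosis genes. Quantile normalization gave 1 replication gene in rib, and in nasal 7 mitosis genes, 9 other replication genes and 8 of the cyclin D list. Cyclic loess gave 0 replication genes in rib, and in nasal 8 mitosis genes, 9 other replication genes and 12 of the cyclin D list. In nasal, the filter at the median level gave 6 mitosis genes and 9 of the cyclin D list, the 25th percentile filter 9 of that list, and trend and robust 5 mitosis genes and 9 of that list. The called share over all genes tested moved as well, from 28.5% as reported to 58.6%, 41.7% and 34.5% in these 3 settings. It was 30.4% under median centring, 34.5% under quantile normalization, 35.0% under cyclic loess and 19.6% with the replicate block. The cause of these shifts was not tested. Without 1 sample, calls over all genes ran from 1639 to 2596 in nasal and from 1827 to 3168 in rib, those of replication genes from 3 to 6 and from 0 to 2, of other replication genes from 1 to 3 and from 4 to 6, of other mitosis genes from 6 to 13 and from 1 to 7, and of the cyclin D list in rib from 2 to 7. Mitosis genes stayed at 3 nasal and 2 rib calls in each of these fits. Sign changes were all in genes not called: Cdc6 (-0.0450), Mcm5 (-0.00525), Mcm6 (-0.0454), Ccna2 (-0.0460), Cenpe (-0.00363) and Tpx2 (-0.0363) under median centring, Orc1 (-0.0783), Orc6 (0.0628), Cdc6 (-0.13), Mcm3 (0.0320) and Cenpe (-0.0370) under quantile normalization, Orc1 (-0.0595), Orc6 (0.0750), Cdc6 (-0.11), Mcm3 (0.0733), Cenpe (-0.00841), Ube2c (0.00676) and Anln (8.5e-06) under cyclic loess, and Orc6 (0.00131), Cdc6 (-0.00598) and Gins1 (0.10) with the mean of probe sets. Without 1 sample, sign changes lay in these ranges: Ccna2 (-0.0525 to 0.13), Cdc6 (-0.0285 to 0.0881), Cenpf (-0.26 to 0.00800), Gins1 (-0.0688 to 0.0791), Mcm3 (-0.15 to 0.0390), Mcm6 (-0.0572 to 0.0878), Tpx2 (-0.0114 to 0.0720) and Ube2c (-0.14 to 0.0482). The number of arrays limits the precision, with standard errors of 0.08 to 0.16 on the log2 scale for the 39.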
